A study of Homo sapiens with 8 samples.

Results

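Palbociclib, a drug that blocks the kinases CDK4 and CDK6, was compared alone with vehicle in MV4-11 cells, a line of human acute myeloid leukemia (AML) whose labelled genotype is FLT3-ITD (a tandem duplication) and MLL-AF4 (a gene fusion). The control group received DMSO and the palbociclib group received palbociclib at 0.5 µM, both to day 4 by the labels, and each group has 2 libraries. The study holds 8 libraries in 4 groups, and the others received tranylcypromine (TCP, an inhibitor of the histone demethylase LSD1) at 5 µM or TCP with palbociclib (the combination), for which the study's methods give 1 day of the CDK inhibitor before both were present for 3 days. Every group shares the FLT3 and MLL lesions and, by the study's methods, a co-culture with HS-5 human bone marrow stromal cells. The data are those of 1 cell line, and nothing in the labels says that the replicates were separate cultures, so that p-values measure the spread between these libraries, which may be technical. All genes with at least 1 TPM (transcripts scaled to a fixed total per library) in at least 2 of the 8 libraries entered the comparison, which were 14151 of the 26364 gene symbols in the table.

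In a dividing cell, D-type cyclins bind CDK4 and CDK6, and the active kinases phosphorylate RB1. Phosphorylated RB1 releases the E2F factors, which turn on genes for the entry into S phase and for DNA replication, while a later wave of genes for mitosis follows under a complex of MYBL2 and FOXM1. A CDK4/6 inhibitor holds RB1 in its repressing form and arrests cells in G1. In the myeloid lineage, exit from the cycle accompanies maturation, during which granule proteins, pattern receptors and lysosomal enzymes are built up. The comparison asks how far each of these gene programs moved under palbociclib, and the libraries with TCP give a separate measurement of the same effect.

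The libraries were first checked against their labels. All 9 markers of AML and myeloid cells were detected in the 4 libraries compared, whereas CD3D and CD3E of T cells were at 0 TPM. Between 13391 and 13640 genes reached 1 TPM in each of these libraries, the depth of which is unknown because TPM keep no counts. Palbociclib replicate 2 stood apart in genes of the stromal co-culture. The summed level of 21 stromal markers was 26.4 and 36.6 TPM in the controls, 34.5 and 169.7 TPM in the palbociclib libraries, 36.6 and 41.6 TPM in the TCP libraries and 49 and 63.9 TPM in the combination libraries. COL1A1, a fibrillar collagen, was at 0.185 and 1.23 TPM in the controls and at 1.32 and 22.2 TPM with palbociclib, and COL3A1 was at 0.0221 and 0.314 TPM and 0.45 and 17.5 TPM. Of the 21 markers, 11 were tested and none passed the test, although limma called 6 of them higher when palbociclib replicate 1 was left out. THY1, a further marker of stromal cells, was below the limit for testing.

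Genes were called with limma on log2(TPM + 1) when the log2 fold change was at least 1 in size and the Benjamini-Hochberg adjusted p was below 0.01, and the words rose and fell are used below for such calls alone. Log2 fold changes are given with their standard error (SE), and they understate the change of genes near 0 TPM. Palbociclib altered 1288 of the 14151 genes (9.1%), of which 643 rose (4.54%) and 645 fell (4.56%). In all 1288 genes both palbociclib libraries lay outside the range of the control libraries. With 2 libraries a group a call nearly requires this, so it lends the calls no further support. At least a 4-fold increase (a log2 fold change of 2) was reached by 157 genes, whereas 68 fell that far. The loss of palbociclib replicate 2 from the fit left 414 higher and 369 lower calls, and the loss of control replicate 2 left 411 lower calls. Leaving out each of the 8 libraries in turn, 382 genes rose and 300 fell in every fit. TPM sum to the same total in each library, and the 10 most abundant genes took 9.12% and 9.67% of it in the control libraries but 13.96% and 14.83% with palbociclib. The median gene stood at -0.16 on the log2 scale (-0.080 without the 10 most abundant genes), and list medians below are to be read against that value. Counts of called members in each list are to be read against the 4.54% and 4.56% of all genes that rose and fell. With the median gene set to 0, 838 genes rose and 395 fell, and with quantile normalization 60.9% of the calls were increases, against 49.9% here. Of the called genes 53 carry microRNA names (of 660 tested), short entries within or beside other genes whose reads they may share, and they are not described further.

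**Figure D1:**
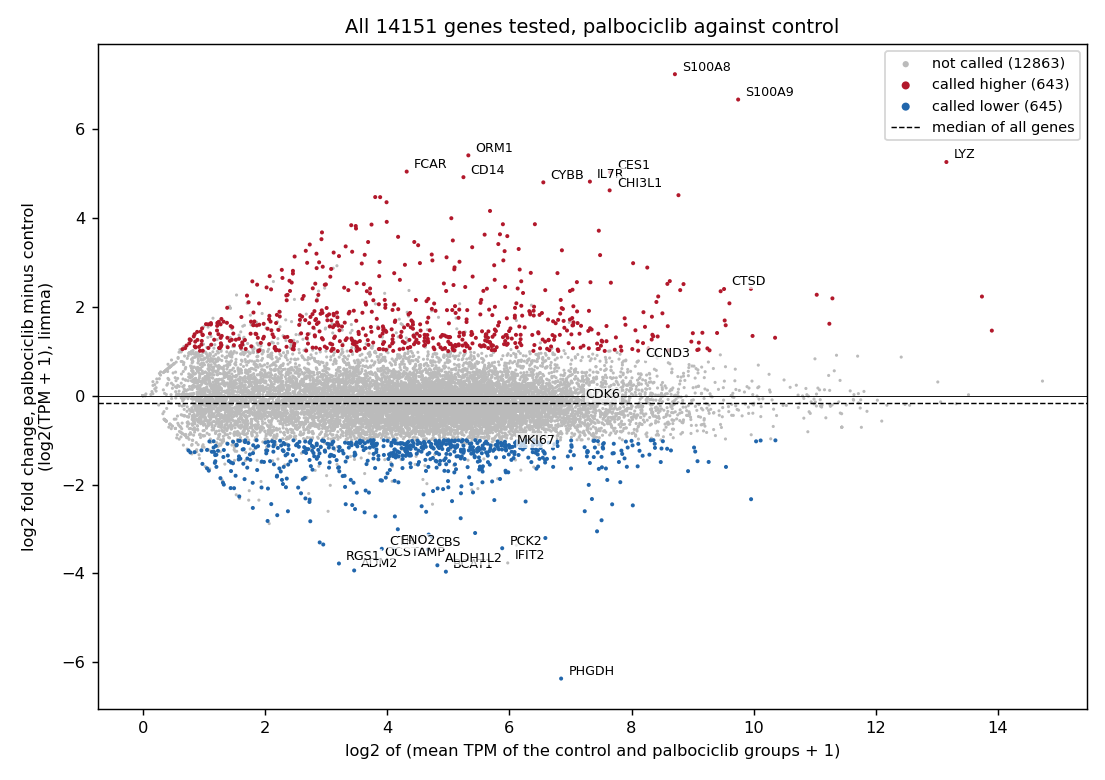
Mean level (log2 scale, x axis) against the log2 fold change of palbociclib over control (y axis) for the 14151 genes tested, each a point, with 643 genes that rose in red and 645 that fell in blue. S100A8, S100A9 and LYZ stand at the top, PHGDH alone at the bottom, and the dashed median of all genes lies at -0.16.

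The 10 largest increases were mostly in products of mature myeloid cells. S100A8 (chr1:153362508-153363549 in GRCh37), a subunit of the calprotectin of neutrophils and monocytes, was at 3.49 and 5.86 TPM (control) and 889.9 and 772 TPM (palbociclib). Its partner S100A9 (chr1:153330330-153333499) was at 13.7 and 18.2 TPM without and 1820 and 1578 TPM with palbociclib. The log2 fold changes of the pair were 7.22 ± 0.40 and 6.66 ± 0.20 (limma adjusted p 7.6e-05 and 1.0e-05). LYZ (chr12:69742161-69748014), the lysozyme of granules, reached 16431 and 18984 TPM with palbociclib from 278 and 770.5 TPM, which made it one of the most abundant transcripts of these cells. The control libraries of LYZ were unequal, yet both stayed far below the palbociclib libraries. The remaining 7 were ORM1, an acute-phase protein (5.40 ± 0.33), FCAR, the receptor for IgA (5.04 ± 0.15), CES1, a carboxylesterase of monocytes (5.02 ± 0.18), CD14, the co-receptor for lipopolysaccharide (4.91 ± 0.24), IL7R, the receptor for interleukin-7 (4.81 ± 0.33), CYBB, the catalytic subunit of the phagocyte oxidase (4.79 ± 0.48), and CHI3L1, a secreted chitinase-like protein (4.61 ± 0.36). ORM1 and CES1 each have a close paralog or pseudogene, so that their reads could be shared in the counting. Each of the 10 kept its call without any 1 of the 8 libraries.

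The 10 largest decreases included several enzymes of amino acid metabolism. PHGDH (chr1:120191034-120286841), the first enzyme of serine synthesis, was at 274 and 179 TPM in the controls and 2.09 and 1.36 TPM with palbociclib, a log2 fold change of -6.36 ± 0.38 (limma adjusted p 9.2e-05). BCAT1, which transaminates branched-chain amino acids, was at 65.9 and 49.2 TPM (control) and 2.84 and 2.62 TPM (palbociclib). CBS and CTH, the consecutive enzymes from homocysteine to cysteine, had log2 fold changes of -3.46 ± 0.34 and -3.44 ± 0.41, and PCK2, the mitochondrial PEP carboxykinase, had -3.43 ± 0.24. ALDH1L2, a mitochondrial folate enzyme, had -3.82 ± 0.48 but was not called without palbociclib replicate 2. The others were ADM2, a peptide hormone (-3.93 ± 0.43), RGS1, a regulator of G protein signaling (-3.78 ± 0.42), ENO2, the neuronal form of enolase (-3.43 ± 0.43), and OCSTAMP, a membrane protein of osteoclast fusion (-3.68 ± 0.54), the last of which missed the threshold without control replicate 1 or either palbociclib library. All but ALDH1L2 and OCSTAMP kept their calls without any 1 library.

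**Figure D2:**
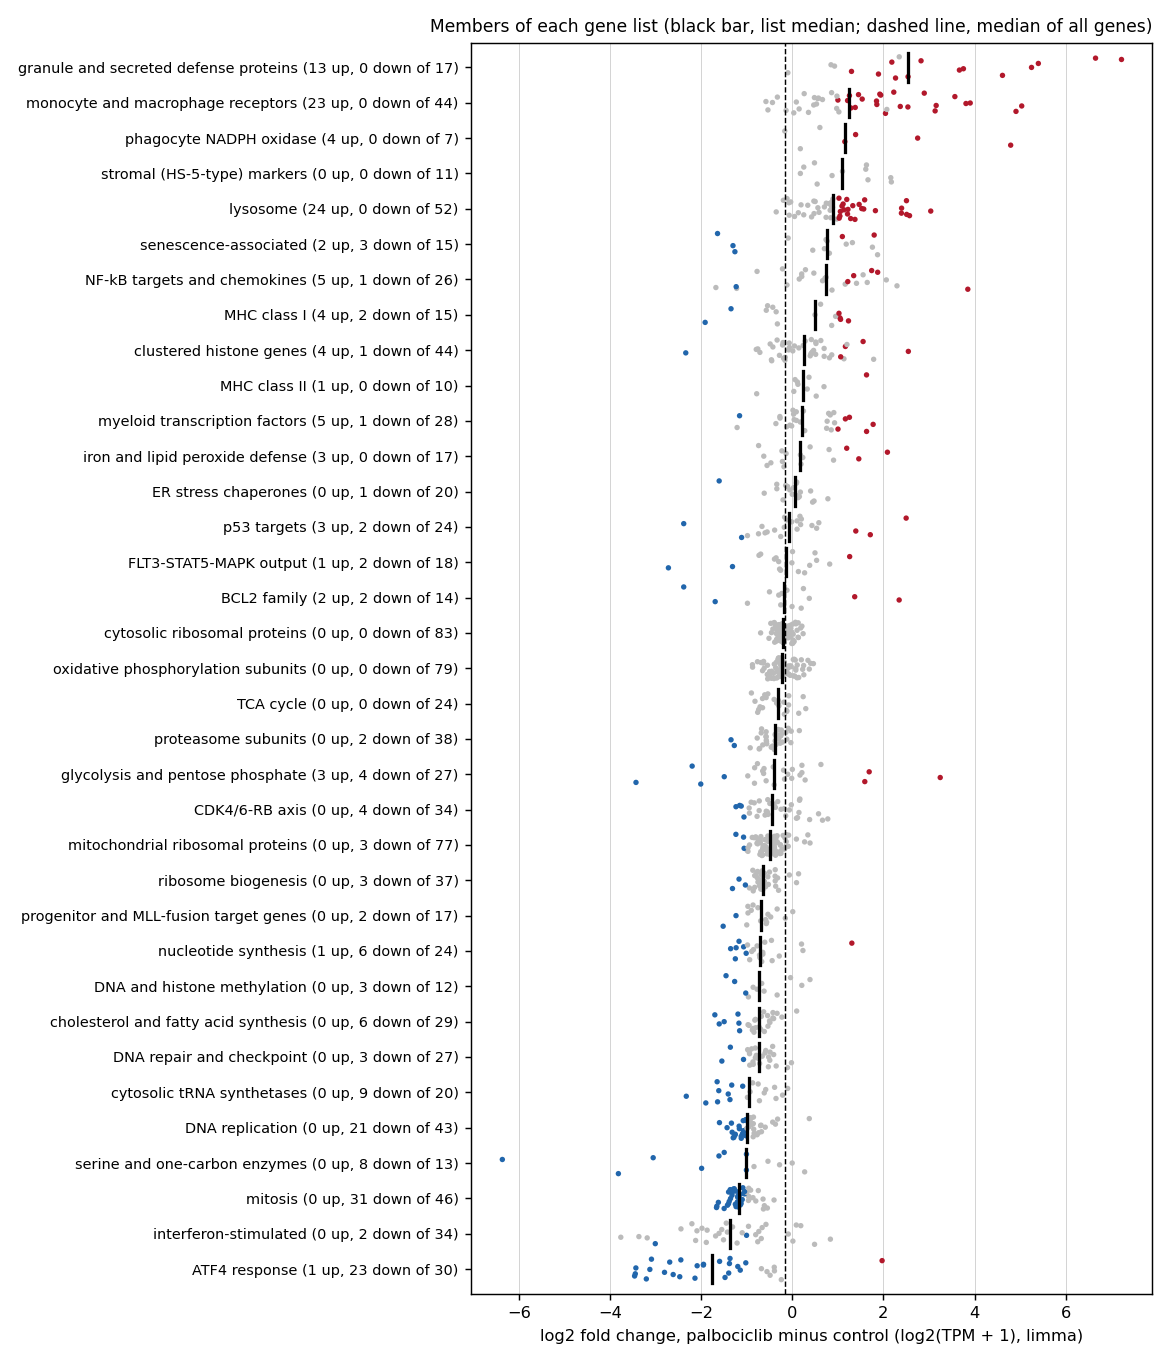
Log2 fold change of palbociclib over control (x axis) for the tested members of each gene list (rows), red where the gene rose, blue where it fell and gray where it was not called, with the list median as a black bar and the median of all genes as a dashed line at -0.16. Granule proteins (median 2.54) and monocyte receptors (1.23) lie to the right, the ATF4 response (-1.77) and mitosis (-1.16) to the left, and cytosolic ribosomal proteins and oxidative phosphorylation subunits close to the line.

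Neither target of the drug was called at the transcript level, and 4 genes that act beside or after them fell. CDK6 was at 131 and 162 TPM without and 131 and 132 TPM with palbociclib, with overlapping groups and a log2 fold change of -0.14 ± 0.11. CDK4 had -0.77 ± 0.10 and CCND3, the most abundant D-type cyclin of these cells by TPM, had 0.78 ± 0.09, both below the fold required for a call although CCND3 was at 208 and 198 TPM against 339 and 359 TPM. RB1 itself had a log2 fold change of -0.32 ± 0.15, and the E-type cyclins CCNE1 and CCNE2, which act with CDK2 after RB1 is phosphorylated, had 0.09 ± 0.19 and 0.12 ± 0.09. Of the 34 genes in the CDK4/6-RB list, all tested, 4 fell and none rose (median -0.45), against 4.56% of all genes that fell. These were the repressor E2F7 (4.34 and 5.05 TPM in the controls and 1.54 and 1.29 TPM with palbociclib), its relative E2F8 (-1.12 ± 0.13), the mitotic factor FOXM1 (-1.15 ± 0.17) and CDK2 (-1.06 ± 0.13), the last named after its values were seen. The count was 1 without control replicate 2 and 2 without palbociclib replicate 2, and E2F7 was called without any 1 library. It was 3 with quantile normalization and 1 with the median gene set to 0, so the count of this list depended on the scaling. CDKN1A, the p21 inhibitor, was at 11.4 and 8.2 TPM (control) and 4.49 and 8.11 TPM (palbociclib), with palbociclib replicate 2 just under control replicate 2, and it was not called.

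Genes of DNA replication fell together, with 21 of 43 tested members called lower, none higher, and 42 of 43 below 0 (median -0.995). PRIM1, the catalytic subunit of primase, was at 69 and 66.8 TPM without and 22.7 and 20.9 TPM with palbociclib (log2 fold change -1.60 ± 0.08). ORC1, part of the origin recognition complex, was at 34.5 and 39.7 TPM in the controls and 12.8 and 13.5 TPM with palbociclib, and the licensing factors CDC6 and CDT1 had -1.30 ± 0.11 and -1.28 ± 0.08. In each of these genes both palbociclib libraries lay well below both controls and close to one another. MCM6, a subunit of the replicative helicase that was chosen for its promoter after its values were seen, was at 195 and 218 TPM (control) and 96.2 and 87.5 TPM (palbociclib). MCM2 and MCM3 had -1.07 ± 0.13 and -1.03 ± 0.15, and PCNA, the sliding clamp, had -0.95 ± 0.13 and missed the fold threshold. Many members lay close to the threshold, and the count was 11 without control replicate 2, 9 without palbociclib replicate 2, 10 with quantile normalization and 8 with the median gene set to 0, while PRIM1, ORC1, CDC6, CDT1 and MCM6 were called without any 1 library. In bulk RNA, fewer cycling cells and less of these transcripts per cell cannot be told apart. Among 24 genes of nucleotide synthesis, 6 fell, with PAICS of the purine pathway at -1.35 ± 0.08 and thymidylate synthase TYMS at -1.17 ± 0.10. SAMHD1, which breaks down deoxynucleotides, was the 1 member that rose, from 109 and 136 TPM to 295 and 313 TPM.

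Mitotic genes fell in larger numbers. Of 46 tested, 31 fell and all 46 lay below 0, from -0.40 to -1.66 (median -1.16). The count was 24 with quantile normalization and 22 with the median gene set to 0. It was lower without control replicate 2 or either palbociclib library and higher without control replicate 1. AURKB, the kinase of the chromosomal passenger complex, was at 69.7 and 66.5 TPM without and 22.4 and 19.4 TPM with palbociclib (log2 fold change -1.66 ± 0.11). BUB1B of the spindle checkpoint was at 64.2 and 73.2 TPM in the controls and 22.6 and 19.7 TPM with palbociclib, and the cyclins CCNA2 and CCNB1 had -1.42 ± 0.10 and -1.13 ± 0.12. CDK1, the kinase that these cyclins activate, had -1.18 ± 0.09, and TOP2A, which untangles sister chromatids, had -1.29 ± 0.11. The proliferation marker MKI67 was at 68.9 and 108 TPM (control) and 32 and 44.4 TPM (palbociclib), and since its control libraries differed, its call (limma adjusted p 0.0099) was lost when any 1 of 7 libraries was left out. PLK1 and CDC20 fell as well (-1.40 ± 0.18 and -1.40 ± 0.18) but not without control replicate 2 or palbociclib replicate 2. In the list of 27 genes for DNA repair and checkpoints 3 fell, against 4.56% of all genes. They were led by the checkpoint kinase CHEK1 (41.1 and 43.1 TPM without and 15.6 and 12.1 TPM with palbociclib) and XRCC2 (-1.36 ± 0.13). The count was 2 with quantile normalization and 2 with the median gene set to 0, and it also changed when single libraries were left out. BRCA1 had -0.72 ± 0.10 and was not called.

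The promoters of these 2 groups differed in letters that were searched for. The windows were taken from RefSeq (GRCh38.p14) and run from 250 bases before to 50 bases after each start. A window was found for 37 of the 43 replication genes and 39 of the 46 mitotic genes, and a gene was counted if any of its windows held the motif on either strand. The E2F motif (TTTCCCGC, TTTCGCGC or TTTGGCGC) was present in 51.4% of the replication genes and in 7.69% of the mitotic genes, against 3.3% of all 27305 genes with a window and 5.66% of those tested. The cell cycle homology region (CHR, TTTGAA) was held by 74.4% of the mitotic genes and by 0 of the 37 replication genes, with 18.2% of all genes as background, and the CCAAT box (CCAAT) by 84.6% and 62.2% against 39.7%. CHR is short and rich in A and T, and 45.5% of the monocyte receptor genes described below held the same letters. The CCAAT box is not particular to these groups either. It was held by 89.5% of 19 genes of endoplasmic reticulum stress and folding and 86.5% of 37 clustered histone genes. Other lists lay lower, such as 34.3% of 67 cytosolic ribosomal protein genes. A match is a description of the sequence and not a bound site. One promoter of each kind is shown, as the 250 bases before the start, 5′ to 3′ on the strand of the gene. Capitals mark the E2F letters in MCM6 and the CHR and CCAAT box in CCNB2. The MCM6 window also holds the CCAAT box on the other strand (attgg), left in lower case. MCM6 (chr2:135876444-135876693, minus strand) has the E2F letters at 2 places, in each as a TTTGGCGC that overlaps a TTTCGCGC of the other strand. CCNB2 (chr15:59104896-59105145, plus strand), a B-type cyclin, has the CHR 29 bases before the start with 4 CCAAT boxes upstream of it. CCNB2 was chosen for this layout after its values were seen and was at 131 and 132 TPM in the controls and 57.3 and 52.1 TPM with palbociclib.
MCM6: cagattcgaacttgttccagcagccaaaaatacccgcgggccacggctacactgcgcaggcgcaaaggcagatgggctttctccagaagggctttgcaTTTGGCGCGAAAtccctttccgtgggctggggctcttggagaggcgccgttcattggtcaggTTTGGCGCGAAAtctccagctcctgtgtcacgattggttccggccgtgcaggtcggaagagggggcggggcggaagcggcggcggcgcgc
CCNB2: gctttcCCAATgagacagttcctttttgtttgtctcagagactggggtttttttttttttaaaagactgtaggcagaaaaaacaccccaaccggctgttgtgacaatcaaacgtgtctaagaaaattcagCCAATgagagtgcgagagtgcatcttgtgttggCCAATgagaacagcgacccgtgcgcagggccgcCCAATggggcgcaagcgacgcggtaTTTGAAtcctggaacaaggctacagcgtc

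The ATF4 response had the lowest median of the 39 lists. ATF4 is a transcription factor that cells translate when amino acids are short or proteins misfold, and it turns on enzymes and transporters that supply amino acids. Its own transcript was at 811 and 779 TPM (control) and 275 and 295 TPM (palbociclib) (log2 fold change -1.48 ± 0.08). In the list of 30 tested genes of the ATF4 response, 23 fell and 1 rose (median -1.77), with 14 lower without palbociclib replicate 2. ASNS, asparagine synthetase, was at 209 and 137 TPM without and 19.5 and 15.7 TPM with palbociclib. CHAC1, which degrades glutathione, was at 50.3 and 33.5 TPM in the controls and 5.28 and 6.53 TPM with palbociclib, and ATF5, a factor related to ATF4, had -2.47 ± 0.26. The leucine transporter SLC7A5 had -2.45 ± 0.17. Control replicate 1 was the higher of the controls in each of these genes, and the palbociclib libraries lay far below both. DDIT3 (CHOP), a factor of the stress response, had -1.39 ± 0.25, and TRIB3, a pseudokinase, -3.09 ± 0.38, and their calls depended on single libraries (DDIT3 on each of the 4 compared and on both combination libraries, TRIB3 on palbociclib replicate 2). SLC7A11, the cystine importer that ATF4 and NRF2 both induce, moved the other way and was at 29.2 and 24.3 TPM (control) and 101 and 115 TPM (palbociclib) (log2 fold change 1.97 ± 0.28), a call that was lost without control replicate 2 or palbociclib replicate 2.

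Serine and one-carbon enzymes showed the same order in both libraries. Of 13 tested, 8 fell and none rose (median -1.01), or 5 without palbociclib replicate 2. After PHGDH, the second enzyme PSAT1 was at 348 and 268 TPM without and 41.6 and 31 TPM with palbociclib, and the third, PSPH, was at 62.9 and 55.2 TPM in the controls and 17.2 and 20.2 TPM with palbociclib, so that the log2 fold change shrank along the pathway from -6.36 ± 0.38 to -3.05 ± 0.27 and -1.61 ± 0.16. SHMT2, which moves the carbon of serine onto folate in mitochondria, had -1.49 ± 0.10, and MTHFD1L, the formate-releasing enzyme, had -1.99 ± 0.11. MTHFD2, the enzyme between these steps, was at 442 and 339 TPM (control) and 237 and 197 TPM (palbociclib) and was not called (limma adjusted p 0.021). Among 20 cytosolic tRNA synthetases 9 fell, all 20 were below 0, and the median was -0.95. GARS, which charges glycine tRNA, was at 279 and 264 TPM without and 51.4 and 55.2 TPM with palbociclib, and AARS for alanine was at 326 and 286 TPM in the controls and 84.7 and 77.8 TPM with palbociclib. Few genes of the unfolded protein side of the stress response were called, for among 20 genes of endoplasmic reticulum stress and folding XBP1 alone was called (1237 and 1013 TPM (control) and 382 and 353 TPM (palbociclib)), while the chaperone HSPA5 had 0.40 ± 0.09 and the list median was 0.06.

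The C/EBP-ATF response element (CARE, letters TGATGNAA) is the sequence to which ATF4 with a C/EBP partner is known to bind. Its letters were present in 34.6% of the 26 ATF4-response genes with a window and in 46.2% of the 13 tRNA synthetase genes with one, against 4.46% of all genes and 2.56% of those tested. Of the 9 serine and one-carbon genes with a window 11.1% held them, and PHGDH and PSAT1 were not among these.

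Other biosynthetic groups moved by smaller amounts. Among 29 genes of cholesterol and fatty acid synthesis, 6 fell and 28 were below 0 (median -0.73). SCD, which makes monounsaturated fatty acids, was at 801 and 682 TPM without and 257 and 201 TPM with palbociclib. HMGCS1 had -1.60 ± 0.31 and the squalene epoxidase SQLE -1.19 ± 0.18, and the count fell to 2 without control replicate 1 and to 2 without palbociclib replicate 2. Glycolysis and the pentose phosphate path split. LDHA, which turns pyruvate into lactate, was at 882 and 926 TPM in the controls and 291 and 353 TPM with palbociclib and fell (-1.49 ± 0.13), as did ENO2. HK3, a hexokinase of myeloid cells, rose to 98.8 and 119 TPM from 11.5 and 9.64 TPM, and PGD of the pentose path rose as well. ALDOC and SLC2A3 were further decreases (these and PGD were named after their values were seen). Of the 27 genes 3 rose and 4 fell, with 2 lower calls without control replicate 1, without control replicate 2 or without palbociclib replicate 2. Of 37 genes for ribosome biogenesis 3 fell, against 4.56% of all genes (list median -0.65), and 1 fell with the median gene set to 0. The 3 were FBL, the methyltransferase of ribosomal RNA (309 and 345 TPM (control) and 138 and 124 TPM (palbociclib)), NPM1 (-1.17 ± 0.09) and NCL (-1.03 ± 0.10, lost without control replicate 2 or palbociclib replicate 2). MYC, a driver of such genes, was at 865 and 859.7 TPM without and 467 and 456 TPM with palbociclib and had -0.90 ± 0.07, under the fold required. None of the 83 cytosolic ribosomal protein genes, 79 oxidative phosphorylation subunits and 24 TCA cycle genes was called, and their medians of -0.21, -0.23 and -0.32 lay close to that of all genes.

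**Figure D3:**
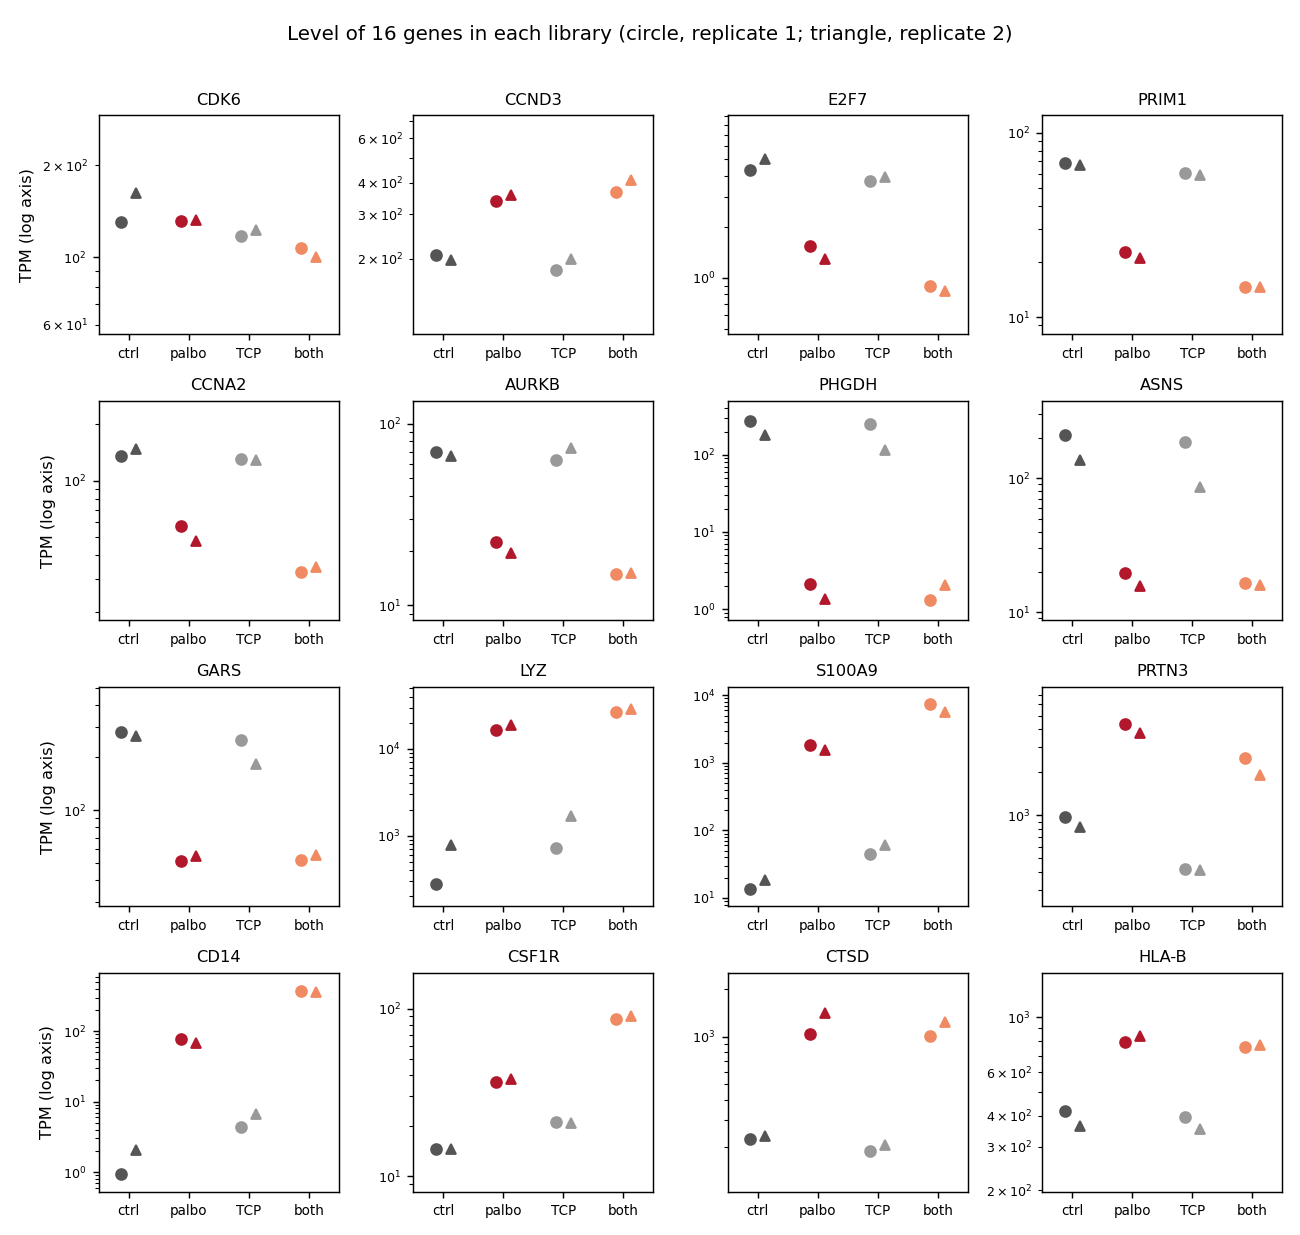
TPM (log axis) of 16 genes in each of the 8 libraries, with circles for replicate 1 and triangles for replicate 2, in the control (ctrl), palbociclib (palbo), TCP and combination (both) groups. CDK6 overlaps between the control and palbociclib groups, PRIM1, AURKB, PHGDH and ASNS lie lower and LYZ, S100A9, CD14 and CTSD higher in both groups with palbociclib than in their counterparts without it.

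The granule and secreted defense proteins rose most as a group. Of 17 tested genes 13 rose and none fell (median 2.54), against 4.54% of all genes. The summed level of all 23 listed genes was 2990 and 3137 TPM in the controls and 29609 and 31312 TPM with palbociclib, and LYZ made up most of the sum with palbociclib but not in the controls. A cluster on chromosome 19 holds the serine protease family of primary granules. AZU1 (chr19:825097-832018) was at 768 and 674 TPM in the controls and 3394 and 3535 TPM with palbociclib, PRTN3 (chr19:840999-848175) at 971 and 831 TPM (control) and 4401 and 3798 TPM (palbociclib) and ELANE (chr19:851014-856247), neutrophil elastase, at 798 and 709 TPM without and 1802 and 1907 TPM with palbociclib. These 3 neighbours were already abundant in control cells and still rose by 2.27 ± 0.08, 2.19 ± 0.15 and 1.30 ± 0.09 on the log2 scale. Other primary granule genes were not called. MPO, myeloperoxidase, was at 3.37 and 3.42 TPM in the controls and 6.82 and 7.03 TPM with palbociclib, higher in both palbociclib libraries but under the fold required on the log2(TPM + 1) scale. CTSG, cathepsin G, named here after its values were seen, was at 76.1 and 49.9 TPM (control) and 51 and 65 TPM (palbociclib). The other 6 genes of the list, among them LTF, CAMP and MMP8 of the later granules, did not reach the limit for testing.

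Among 44 receptors of monocytes and macrophages 23 rose and none fell (median 1.23), with 20 to 24 called when a control or palbociclib library was left out. CD14 was at 0.943 and 2.07 TPM without and 77 and 68 TPM with palbociclib, and FCAR at 0.0464 and 0.329 TPM in the controls and 35.5 and 40 TPM with palbociclib, both nearly silent in control cells. FPR1, the receptor for formylated bacterial peptides, was at 0.355 and 0.628 TPM (control) and 21.2 and 18.6 TPM (palbociclib). The growth factor receptors CSF3R and CSF1R, for G-CSF and M-CSF, were at 62.8 and 54.5 TPM without and 346 and 343 TPM with palbociclib and at 14.6 and 14.7 TPM in the controls and 36.4 and 37.9 TPM with palbociclib. The Toll-like receptors TLR2 and TLR4, which sense bacterial products with CD14, had 1.45 ± 0.19 and 1.92 ± 0.08. Not every marker of maturation moved. ITGAM, which encodes CD11b, was at 2.23 and 1.23 TPM (control) and 1.91 and 1.8 TPM (palbociclib) with overlapping groups, CD86 had -0.53 ± 0.31, and FCGR1A, an Fc receptor, had 0.47 ± 0.15, none of them called. CD163, a marker of macrophages, was below the limit for testing. In the phagocyte oxidase, which makes superoxide, 4 of 7 genes rose (median 1.15). CYBB was at 3.18 and 9.02 TPM without and 156 and 204 TPM with palbociclib, and the cytosolic subunit NCF4 had 1.39 ± 0.12, while CYBA, the membrane partner of CYBB, had 0.18 ± 0.10. NCF1 shares sequence with its pseudogenes, and its value (1.15 ± 0.21) is uncertain.

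Markers of the stromal co-culture were raised in the same library in which some of these groups were highest, palbociclib replicate 2. Among the genes highest in that library were secreted factors that fibroblasts make as well. IL6 was at 3.39 and 14.5 TPM in the controls and 8.08 and 84.6 TPM with palbociclib, CXCL8 at 25.8 and 93.9 TPM (control) and 81.8 and 299 TPM (palbociclib) and IL1B at 2.84 and 26.3 TPM without and 18.3 and 94.2 TPM with palbociclib, and none of them was called, although CXCL8 was with the replicate number as a block in the fit (limma adjusted p 0.00565). Of the genes described above, S100A8, S100A9, CD14, FPR1 and PRTN3 were higher in palbociclib replicate 1, and LYZ, CYBB and FCAR in palbociclib replicate 2. The part of stromal RNA in these increases was not tested.

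Maturing myeloid cells build their granules under C/EBP and PU.1 factors, and short letters for both were searched in the same windows. The PU.1-type ETS letters (GAGGAA) were held by 60.6% of the 33 receptor genes and 60% of the 10 granule genes with a window. The background was 31.8% of all genes and 33.7% of those tested. Lists with few or no calls held them as well, with 87.5% of 8 MHC class II genes and 60% of 5 stromal markers. The C/EBP letters (TTGCNNAA) were in 15.2% of the receptor and 30% of the granule genes, against 12.7% of all genes and 10% of those tested. PRTN3 is shown for both motifs and CSF1R for the ETS letters alone, again as the 250 bases before the start. In PRTN3 (chr19:840749-840998, plus strand) the ETS letters begin 88 bases and the C/EBP letters 62 bases before the start. CSF1R (chr5:150086555-150086804, minus strand) has 2 adjacent copies of the ETS letters, 20 and 14 bases before it.
PRTN3: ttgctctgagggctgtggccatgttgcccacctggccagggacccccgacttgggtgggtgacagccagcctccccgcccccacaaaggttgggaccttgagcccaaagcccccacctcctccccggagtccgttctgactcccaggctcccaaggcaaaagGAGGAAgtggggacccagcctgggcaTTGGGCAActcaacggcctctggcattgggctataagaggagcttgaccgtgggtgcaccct
CSF1R: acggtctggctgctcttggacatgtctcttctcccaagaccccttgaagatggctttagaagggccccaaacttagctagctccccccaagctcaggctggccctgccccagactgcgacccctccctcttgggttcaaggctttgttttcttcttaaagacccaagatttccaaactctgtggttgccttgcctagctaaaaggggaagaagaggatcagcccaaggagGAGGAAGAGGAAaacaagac

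The transcript levels of the factors themselves moved less than those of the granule and receptor genes. SPI1, which encodes PU.1, was at 214 and 250.1 TPM in the controls and 409.9 and 464 TPM with palbociclib and had 0.91 ± 0.14, below the fold required for a call. CEBPA had 0.27 ± 0.13 and CEBPB 0.85 ± 0.07, and IRF8, a monocyte factor, was at 210.1 and 264 TPM (control) and 289 and 245 TPM (palbociclib). Of 28 myeloid transcription factors 5 rose and 1 fell (2 with the replicate block), but the 5 increases were 0 without palbociclib replicate 2, 2 without control replicate 1 and 3 without control replicate 2. Among the 5 were CEBPD (from 114 and 135 TPM to 233 and 269 TPM), KLF4 (1.17 ± 0.25), ID1 (1.77 ± 0.25) and BCL6 (1.63 ± 0.27). NR4A1 fell (-1.16 ± 0.21), with a call that any 1 of the control, palbociclib or combination libraries could remove, and EGR1, the added decrease under the block, had -1.21 ± 0.41. On the side of the leukemic progenitor, 17 of 27 listed genes were tested, 2 fell (FLT3 and MEF2C) and 16 lay below 0 (median -0.69). FLT3, the receptor that carries the tandem duplication, was at 249 and 221 TPM without and 94.8 and 69.8 TPM with palbociclib, and its call was lost without control replicate 1, control replicate 2 or palbociclib replicate 2. MEF2C, a target of MLL fusions, was at 128 and 118 TPM in the controls and 58.3 and 45.7 TPM with palbociclib and was called without any 1 library. The count was 4 without palbociclib replicate 1. HOXA9 and MEIS1, classic targets of the fusion, had -0.56 ± 0.11 and -0.53 ± 0.11, and MYB 0.01 ± 0.11, none called.

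Lysosomal genes rose broadly. Of 52 tested, 24 rose, none fell and 46 were above 0 (median 0.89), with 18 called without palbociclib replicate 2. The summed level of all 54 listed genes was 4175 and 4197 TPM in the controls and 10631 and 12051 TPM with palbociclib. FUCA1, the enzyme that removes fucose from glycoproteins, was at 12.9 and 11.1 TPM (control) and 104 and 107 TPM (palbociclib), and CD68, a membrane protein of macrophage lysosomes, was at 121 and 104 TPM without and 614 and 738 TPM with palbociclib. The protease CTSD was at 225 and 236 TPM in the controls and 1049 and 1412 TPM with palbociclib, and PSAP, the precursor of the saposins, at 151 and 124 TPM (control) and 776 and 792 TPM (palbociclib). GRN, progranulin, had 2.40 ± 0.11 and LAMP1, the main membrane glycoprotein, 1.33 ± 0.07. The groups stood apart in each of these genes, and all kept their calls without any 1 library. LAMP2, the second membrane glycoprotein, had 0.34 ± 0.10 and was not called. TFEB, a master factor of lysosomal genes whose activity is set by its location in the cell, was at 17.9 and 14.9 TPM without and 15.8 and 14.2 TPM with palbociclib. Of 17 genes of iron handling and peroxide defense 3 rose, or 1 without palbociclib replicate 2. HMOX1, heme oxygenase, was at 4.67 and 2.95 TPM in the controls and 17.3 and 21.1 TPM with palbociclib, and FTL, the ferritin light chain, with many processed pseudogenes that could share its reads, was at 7414 and 8799 TPM (control) and 19423 and 25430 TPM (palbociclib) and lost its call without control replicate 1 or palbociclib replicate 2. SLC11A1, a metal transporter of phagosomes, had 1.19 ± 0.18 and was lost without control replicate 2 or either palbociclib library.

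The E-box of the lysosomal network (CACGTG) was present in 32.4% of the 34 lysosomal genes with a window, against 8.77% of all genes and 12.5% of those tested. The same letters were held by 41.9% of the 31 ribosome biogenesis genes with a window, a list with a median of -0.65. Among genes with a window, 12.5% of those that rose and 15.9% of those that fell held them. LAMP1 and CTSA are shown as the lysosomal members with repeated matches before the start. LAMP1 (chr13:113296989-113297238, plus strand) has 5 of them, and CTSA (chr20:45891085-45891334, plus strand), the protective cathepsin A, has 2 within 42 bases of the start. CTSA was picked for its promoter after its values were seen and was at 108 and 118 TPM without and 577 and 731 TPM with palbociclib.
LAMP1: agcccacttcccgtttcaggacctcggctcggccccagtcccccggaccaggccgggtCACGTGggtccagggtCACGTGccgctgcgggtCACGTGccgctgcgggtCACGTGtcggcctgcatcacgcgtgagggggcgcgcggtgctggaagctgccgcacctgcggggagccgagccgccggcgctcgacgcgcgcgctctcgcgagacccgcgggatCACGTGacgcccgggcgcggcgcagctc
CTSA: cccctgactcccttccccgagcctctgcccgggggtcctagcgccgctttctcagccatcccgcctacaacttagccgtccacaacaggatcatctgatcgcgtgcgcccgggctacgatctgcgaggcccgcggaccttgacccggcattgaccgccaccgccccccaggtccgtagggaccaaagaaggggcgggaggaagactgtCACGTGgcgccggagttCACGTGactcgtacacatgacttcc

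Antigen presentation and interferon genes did not move as one program. Of 15 MHC class I genes 4 rose and 2 fell (median 0.50). The heavy chain gene HLA-B was at 419.5 and 365 TPM in the controls and 797 and 837 TPM with palbociclib and B2M, the light chain, had 0.86 ± 0.14. HLA-C and NLRC5, the class I regulator, rose as well (1.05 ± 0.10 and 1.03 ± 0.10, HLA-C named after its values were seen), 2 of the 4 were lost without control replicate 2, and reads of the HLA genes can be shared between them. ERAP2, which trims peptides, fell to 6.22 and 4.53 TPM from 23 and 22.5 TPM, and PSMB9 of the immunoproteasome had -1.34 ± 0.13. In MHC class II 1 of 10 genes was called, IFI30, a lysosomal reductase (73.1 and 60.9 TPM (control) and 209.6 and 208 TPM (palbociclib)), while HLA-DRA had 0.11 ± 0.16.

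The 34 interferon-stimulated genes had a median of -1.37, lower than that of mitosis, yet 2 fell by the test (CXCL10 and IRF1) and neither did so in every fit. The share of all genes that fell was 4.56%. The control libraries were far apart. The summed level of the list was 3195 and 1637 TPM in the controls and 1361 and 1938 TPM with palbociclib, and the TCP libraries differed in the same way (2766 and 1063 TPM). IFIT1, an RNA-binding effector, was at 61.6 and 22.3 TPM without and 2.59 and 3.92 TPM with palbociclib, and ISG15, a ubiquitin-like modifier, was at 189 and 69.7 TPM in the controls and 31.7 and 43.3 TPM with palbociclib. Replicate 1 of the control was far above replicate 2 in both genes, and for ISG15 the gap between the controls was wider than that between control replicate 2 and either palbociclib library. With the replicate block 5 fell, IFIT2, IFIT3 and OASL being added (limma log2 fold changes -3.76 ± 0.85, -3.37 ± 0.79 and -2.44 ± 0.69, named after their values were seen). The count was 0 without control replicate 1 and 0 without palbociclib replicate 2, and the median in the combination against TCP was -0.44. CXCL10 itself was at 33.5 and 28.7 TPM (control) and 3.13 and 2.85 TPM (palbociclib). Among 26 NF-kB targets and chemokines 5 rose and 1 fell (3 rose without control replicate 1 and 3 without palbociclib replicate 2). CCL2, which draws in monocytes, was at 9.28 and 10.2 TPM without and 120.0 and 198 TPM with palbociclib, and SOD2, the mitochondrial superoxide dismutase, at 117 and 132 TPM in the controls and 420.0 and 499 TPM with palbociclib, both called without any 1 library, and TNFAIP2, NFKBIZ and CXCR4 (named after their values were seen) were the others. NFKBIA, the feedback inhibitor, had 0.74 ± 0.17. The chemokine receptor CCR7 was the 1 decrease (2.16 and 1.31 TPM (control) and 0.152 and 0.151 TPM (palbociclib)), and it was lost without any 1 of the 4 libraries compared.

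**Figure D4:**
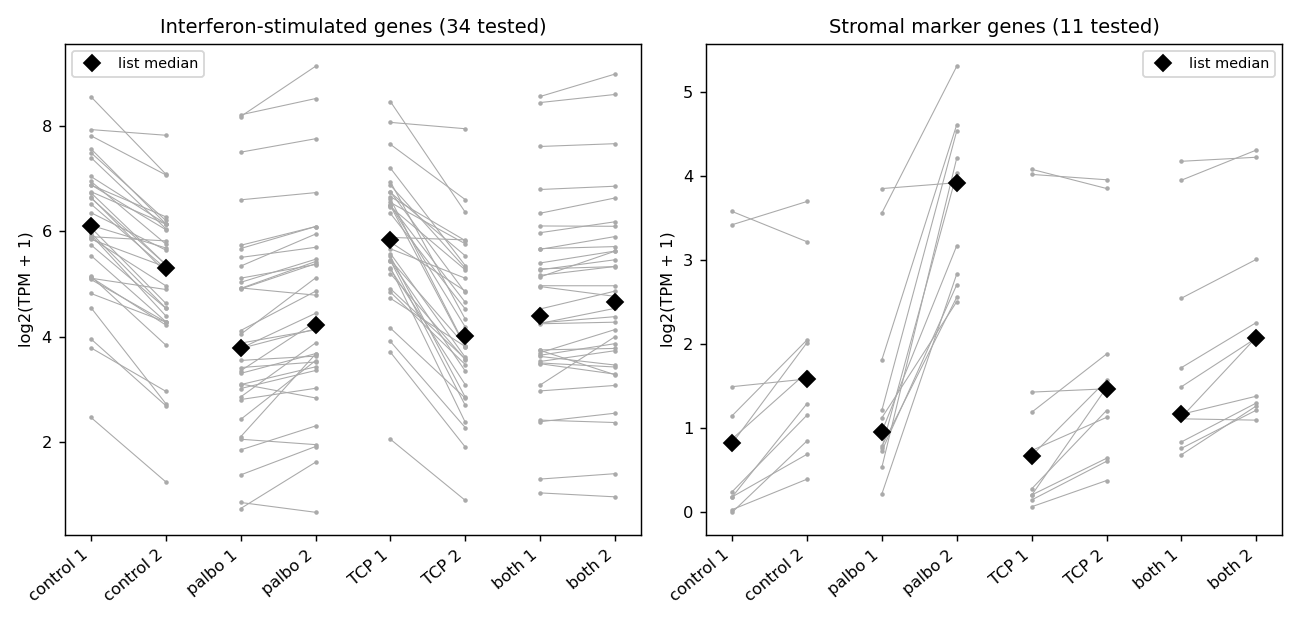
Level on the log2(TPM + 1) scale of 34 interferon-stimulated genes (left) and 11 stromal markers (right) in each of the 8 libraries, with a gray line joining both replicates of a gene and a diamond at the median of the list in each library. The interferon genes lie higher in replicate 1 than in replicate 2 of the control and TCP groups, and the stromal markers stand highest in palbociclib replicate 2.

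Regulators of survival and signaling changed gene by gene. BCL2, the anti-apoptotic protein that venetoclax targets, was at 45.5 and 45.9 TPM without and 15.4 and 11.7 TPM with palbociclib (log2 fold change -1.69 ± 0.19), and BCL2L11, which encodes the pro-apoptotic BIM, was at 30.6 and 27.7 TPM in the controls and 74.3 and 79.5 TPM with palbociclib. MCL1, which also opposes BIM, had 0.24 ± 0.07. PMAIP1 (NOXA) had -2.38 ± 0.40 and BCL2A1 2.35 ± 0.48, and both calls were lost without control replicate 1 or either palbociclib library (BCL2A1 also without control replicate 2 or a combination library). Of the 14 BCL2 family genes tested these 4 were called, 2 in each direction. Among 24 p53 targets 3 rose and 2 fell, and the 2 decreases (PMAIP1 and AEN) were both lost without control replicate 1, palbociclib replicate 1 or palbociclib replicate 2. TP53INP1, which acts in autophagy and cell death, was at 1.66 and 1.15 TPM (control) and 13.6 and 11.5 TPM (palbociclib), and BTG2, an antiproliferative gene of differentiating cells, was at 17 and 17.7 TPM without and 53.9 and 65 TPM with palbociclib, and FAS, a death receptor, had 1.39 ± 0.17 (AEN and FAS were named after their values were seen). MDM2, the classic target, had -0.18 ± 0.09. In 18 genes of FLT3, STAT5 and MAPK output the ETS factors ETV4 (30.3 and 28.2 TPM in the controls and 4.4 and 2.91 TPM with palbociclib) and ETV5 (-1.31 ± 0.14) fell and SOCS3, an inhibitor of cytokine signals, rose (55.5 and 52.5 TPM (control) and 126 and 136 TPM (palbociclib)), while DUSP6 had -0.28 ± 0.18. KDM1A, which encodes LSD1, the target of TCP, was at 79.6 and 85 TPM without and 47.4 and 42.5 TPM with palbociclib and had -0.86 ± 0.08. Of 12 genes of DNA and histone methylation 3 fell, UHRF1 (-1.45 ± 0.17), DNMT3B (-1.02 ± 0.20) and TET1 (-1.26 ± 0.23), with none left without palbociclib replicate 2 and 1 without control replicate 2 or palbociclib replicate 1. DNMT1, the maintenance methyltransferase, had -0.96 ± 0.13.

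Features listed for senescence were mixed. LMNB1, a nuclear lamin lost in senescent cells, was at 281 and 304 TPM in the controls and 124 and 112 TPM with palbociclib, and TIMP2, a secreted protease inhibitor, at 31.6 and 27.2 TPM (control) and 95.3 and 114 TPM (palbociclib). VEGFA had -1.64 ± 0.31 and TIMP1 1.10 ± 0.13, calls that were lost without some library (TIMP1 without palbociclib replicate 2, VEGFA without any 1 of the 4 compared), and 2 of the 15 tested rose and 3 fell, HMGB2, a chromatin protein named after its values were seen, being the third decrease. Of 73 clustered histone genes 44 were tested, 4 rose and 1 fell, or 2 rose without control replicate 1 and 2 without palbociclib replicate 2. The shares of all genes that rose and fell were 4.54% and 4.56%. HIST1H2BK was at 47.5 and 43.3 TPM without and 229 and 319 TPM with palbociclib and HIST1H2BH at 10 and 10.1 TPM in the controls and 1.45 and 0.959 TPM with palbociclib. Replication-dependent histone genes are close copies of one another whose transcripts mostly lack a poly-A tail. Their values therefore depend on the library type and on how shared reads were counted. The study's methods name an mRNA kit (Illumina Stranded mRNA Prep), so these values cannot be read as the total output of these genes.

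Palbociclib was also given with TCP, and the combination against TCP measures its effect in 4 libraries that the first comparison did not use, though both were fitted with a common estimate of the spread. In that comparison 1720 genes were altered (12.2%), 772 higher (5.46%) and 948 lower (6.7%). Of the 643 genes that rose with palbociclib alone, 637 had the same sign and 540 also rose in the presence of TCP, which is 83.98% of the first list and 69.95% of the second. Of the 645 that fell, 640 had the same sign and 548 also fell (84.96% and 57.81%), and 0 genes were called in opposite directions. Over all genes tested, called or not, 87.95% had the same sign in both comparisons. The median log2 fold changes were 1.472 and 1.599 over the genes that rose, and -1.26 and -1.38 over those that fell, palbociclib alone first. Across all 14151 genes Pearson's r between both sets of log2 fold changes was 0.895, as a description, since genes are not independent replicates. Mitotic genes had a median of -1.56 with TCP (42 of 46 lower) and DNA replication -1.30 (35 of 43 lower). The ATF4 response had -1.38 (20 of 30 lower), lysosomal genes 1.03 (29 of 52 higher) and monocyte receptors 1.97 (36 of 44 higher).

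**Figure D5:**
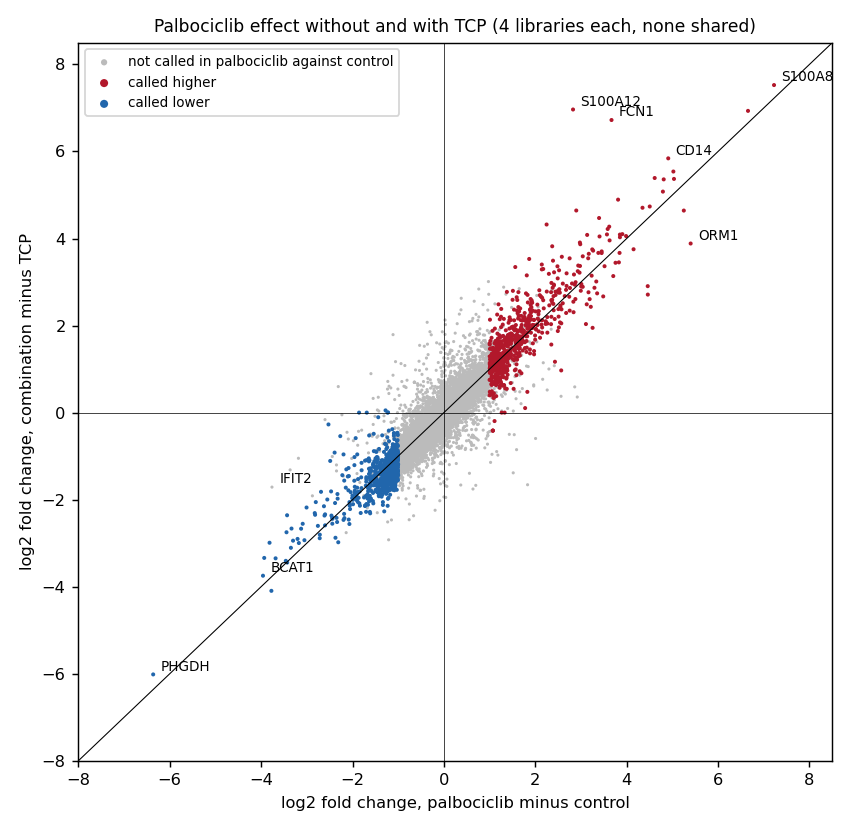
Log2 fold change of palbociclib over control (x axis) against that of the combination over TCP (y axis) for the 14151 genes tested, in red and blue where the gene rose or fell with palbociclib alone, with the line of equal values. The points follow the line (r = 0.895), and S100A12 and FCN1 lie above it.

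Whether the effect of palbociclib depended on TCP was tested with an interaction term. By limma 0 genes (0%) passed, with 904 genes at an unadjusted p below 0.05, a smallest adjusted p of 0.172 and 7 genes called when no filter on low values was used. S100A8 had 7.22 ± 0.40 alone and 7.53 ± 0.40 with TCP, and PHGDH -6.36 ± 0.38 and -6.02 ± 0.38. CD14 was at 0.943 and 2.07 TPM in the control, 77 and 68 TPM with palbociclib, 4.32 and 6.7 TPM with TCP and 374 and 359 TPM with both, so that the log2 fold changes were 4.91 ± 0.24 and 5.84 ± 0.24. The widest gaps among granule genes were in S100A12, a further calgranulin, and FCN1, a monocyte lectin, both named after their values were seen. S100A12 was at 0 and 0.411 TPM and 8.39 and 6.56 TPM without TCP and at 1.37 and 4.53 TPM and 527 and 386 TPM with it, and FCN1 at 0 and 0.224 TPM and 11.5 and 14.8 TPM without and 1.1 and 3.47 TPM and 306 and 339.7 TPM with it. ORM1 went the other way (5.40 ± 0.33 alone, 3.89 ± 0.33 with TCP), and PRTN3 was lower in both groups with TCP (419.5 and 417 TPM and 2534 and 1918 TPM) than in their counterparts. None of these differences between the effects passed the test at 2 libraries a group.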

How the data were processed

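RNA-seq of MV4-11 cells in co-culture was deposited as TPM per gene symbol for 8 libraries. Per the study's methods and processing notes, the authors mapped reads to hg19 (GRCh37) with Subread, counted them with featureCounts 1.6.4 and converted the counts to TPM. The gene annotation, gene lengths and strand setting are not given in the sources used here. The deposited TPM sum to the same total in each library, so that depth is unknown and a rise of abundant genes lowers all others.

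From these values log2(TPM + 1) was fitted with limma 3.58.1 in R 4.3.3 (1 coefficient per group, all 8 libraries, trended empirical Bayes moderation, 4 residual degrees of freedom), and p-values were adjusted by the Benjamini-Hochberg method over 14151 genes. An exact permutation test of 2 libraries against 2 cannot go below a two-sided p of 0.333, so none was used. Libraries were grouped by their labels, and the same replicate numbers occur in every group. Same-numbered libraries deviated together from their group means (correlations across genes of 0.169 to 0.491 for the 6 pairs of groups), so the numbers were taken as pairs, from the values alone, and a fit with the replicate block was run beside the unblocked one.

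Genes named in the text are the 10 largest increases and decreases among called genes whose libraries did not overlap and whose higher group averaged 5 TPM or more, key members of each list, and for each list the 2 called members that changed most and the one against the list's direction. Others are marked, and some members of the lists are not reported here. The genes and lists were chosen with earlier results of these data known. Promoter windows are from RefSeq (GRCh38.p14) and gene positions from a GENCODE annotation of GRCh37, and 10361 of the genes tested matched a window by symbol. Alternatives were another pseudocount, no filter or a stricter one, other scalings, limma without a trend or with a fold threshold in the test (treat), an adjusted p below 0.05, the replicate block, the 4 libraries alone and each library left out. Columns of all 8 libraries were used.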

Additional observations from a re-analysis of the deposited data

How the results depend on the processing

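The counts of calls depended on the test, the scaling and single libraries. When the fold threshold was built into the test (limma treat), 144 genes rose and 24 fell with palbociclib, and 216 rose and 71 fell in the combination against TCP. Of the 136 called genes named here, 97 missed the threshold with treat, 14 with median-ratio scaling and 9 with quantile normalization. Scaling by the median ratio of the libraries left 395 decreases with palbociclib and 602 in the combination against TCP. Leaving out 1 library gave 414 to 651 increases and 369 to 675 decreases with palbociclib, the lowest of both without palbociclib replicate 2. The interaction had 0 calls except without a filter on low values, where 7 genes passed. With the replicate block, 697 genes rose and 689 fell, and beside the interferon and transcription factor genes and CXCL8, described above, the paired fit changed no call of a gene named here. With no counts deposited, the precision of genes near 1 TPM is unknown, and changes below 2-fold were not called by choice of the threshold. The sign turned for 7 named genes that were not called. Log2 fold changes became 0.032 for CDK6, 0.078 for CTSG and 0.050 for TFEB with median-ratio scaling, and 0.044 for CTSG and 0.030 for TFEB with quantile normalization. With 1 library left out they ranged from -0.30 to 0.0096 for CDK6, -0.40 to 0.20 for CTSG, -0.24 to 0.0091 for TFEB, -0.059 to 0.24 for CCNE1, -0.092 to 0.32 for HLA-DRA, -0.18 to 0.36 for ITGAM and -0.084 to 0.11 for MYB.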

Other observations

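Outside the groups described, 3 of 77 mitochondrial ribosomal protein genes and 2 of 38 proteasome subunits fell and none rose (medians -0.48 and -0.39, against -0.16 for all genes), shares near the 4.56% of all genes that fell. The first count was 1 and the second 2 with quantile normalization, and the same with the median gene set to 0. Both counts also changed when single libraries were left out. Of the lineage markers, NKG7, a granule protein of cytotoxic cells chosen after its values were seen, was at 181 and 168 TPM (control) and 297 and 311 TPM (palbociclib), in libraries in which CD3D and CD3E were at 0 TPM. The stromal library difference, the unknown depth and a cell line without stated separate cultures limit every comparison, and the exposure to TCP alone is given as 4 days in the labels.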
